A study of Saccharomyces cerevisiae with 4 samples.

Results

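The genes described here make lysine, the aromatic amino acids, threonine, glycine and proline in budding yeast, together with GCN4, the activator that many of them share. They were taken by gene symbol from the platform annotation, which placed all 31 on the array with 1 probe each, among 6195 features in all. Messenger RNA from 4 samples was compared on spotted arrays with 2 colours, at 1 sample per group and with no replicates. Each sample was hybridised in 2 dye orientations, and an array here means the single set of ratios deposited for a sample. Snf2 is the ATPase of SWI/SNF, a complex that remodels nucleosomes, and SnAC is a domain conserved in Snf2. The snf2 null, a BY4741 strain of genotype Δsnf2, was hybridised against wild-type BY4741. The SnAC mutant, which lacks this domain of Snf2 and has the background strain PSY3, was hybridised against Snf2-2FLAG, a wild type in the background PSY2 whose Snf2 carries a FLAG tag. BY4741 and Snf2-2FLAG were also each hybridised against themselves, and the labels do not say whether those channels came from separate cultures. All strains grew in YPD (rich medium with glucose) at 25 C and were collected at an optical density of 0.8. Each mutant is represented by a single strain, and the labels name no auxotrophic markers.

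Each pathway starts from a common intermediate of central metabolism. Yeast builds lysine from 2-oxoglutarate and acetyl-CoA through 2-aminoadipate, and the activator Lys14 switches pathway genes on when a pathway intermediate builds up. Aromatic synthesis runs through the shikimate pathway to chorismate, which is split between tryptophan on one side and phenylalanine and tyrosine on the other. Threonine comes from aspartate through homoserine, and proline from glutamate. When amino acids are scarce, translation of GCN4 increases and the Gcn4 protein activates genes in most of these pathways. Gcn4 is known to recruit SWI/SNF to some of its targets.

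The deposited log ratios were read as log2 and are given here minus the median of their array, so that 0 is the typical gene and values above 0 mean more transcript in the named strain. The medians removed were -0.39 on the SnAC mutant array, 0.003 on that of the null, and -0.12 and 0.10 on the BY4741 and Snf2-2FLAG arrays. With 1 array per group no value has an error and no difference could be tested. A fold below compares the mutant with its own wild type relative to the typical gene of that array. In RNA of a whole culture, fewer cells with a transcript and less transcript per cell cannot be told apart. As a check of direction, SNF2 itself read -2.14 in the null and -0.19 on the BY4741 array, and it had no value on the Snf2-2FLAG or SnAC mutant arrays. Of the members, 26 had a value on all 4 arrays. LYS1, LYS2, TRP4, THR4 and PRO2 had none on the BY4741 array, and PRO2 had none on the Snf2-2FLAG array either.

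Most of these genes stayed close to the middle of both mutant arrays, and the pathways leaned in different directions. Genes of lysine synthesis lay mostly below the array median in both mutants, with LYS20 lowest in the null. The shikimate genes ARO4 and ARO1 were low in the SnAC mutant. All 5 tryptophan genes lay above the median in the null. ARO10, a decarboxylase of aromatic amino acid breakdown, was the only member at least 2-fold from the array median, and it was low in both mutants. It was also low when each wild type was hybridised against itself.

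In counts, 1 of 31 members was at least 2-fold lower in the null, where 1.59% of 6031 features were, and 0 were at least 2-fold higher, where 1.26% of features were. In the SnAC mutant the counts were again 1 lower and 0 higher, beside 1.19% and 0.866% of 5890 features. At 1.5-fold, 2 members were lower and 0 higher in the null, against 3.27% and 4.28% of features. At the same threshold 3 members were lower and 0 higher in the SnAC mutant, against 2.56% and 3.12% of features. Counts of 1 to 3 genes are too few to read against these shares. Without centring, 3 members were at least 2-fold lower in the SnAC mutant, where 2.46% of features were, since the offset of that array moves every feature. With the wild-type array subtracted, 0 members passed 2-fold in either mutant, where 1.63% of features were lower and 1.63% higher in the null and 1.93% lower and 1.87% higher in the SnAC mutant. The median of the members was -0.09 in the null and -0.14 in the SnAC mutant, against 0 for all features by construction. Below the median lay 20 of 31 members in the null and 22 of 31 in the SnAC mutant. On the wild-type arrays the members had medians of 0.012 and -0.02, with 11 of 26 below the median in BY4741 and 16 of 30 in Snf2-2FLAG.

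**Figure D1:**
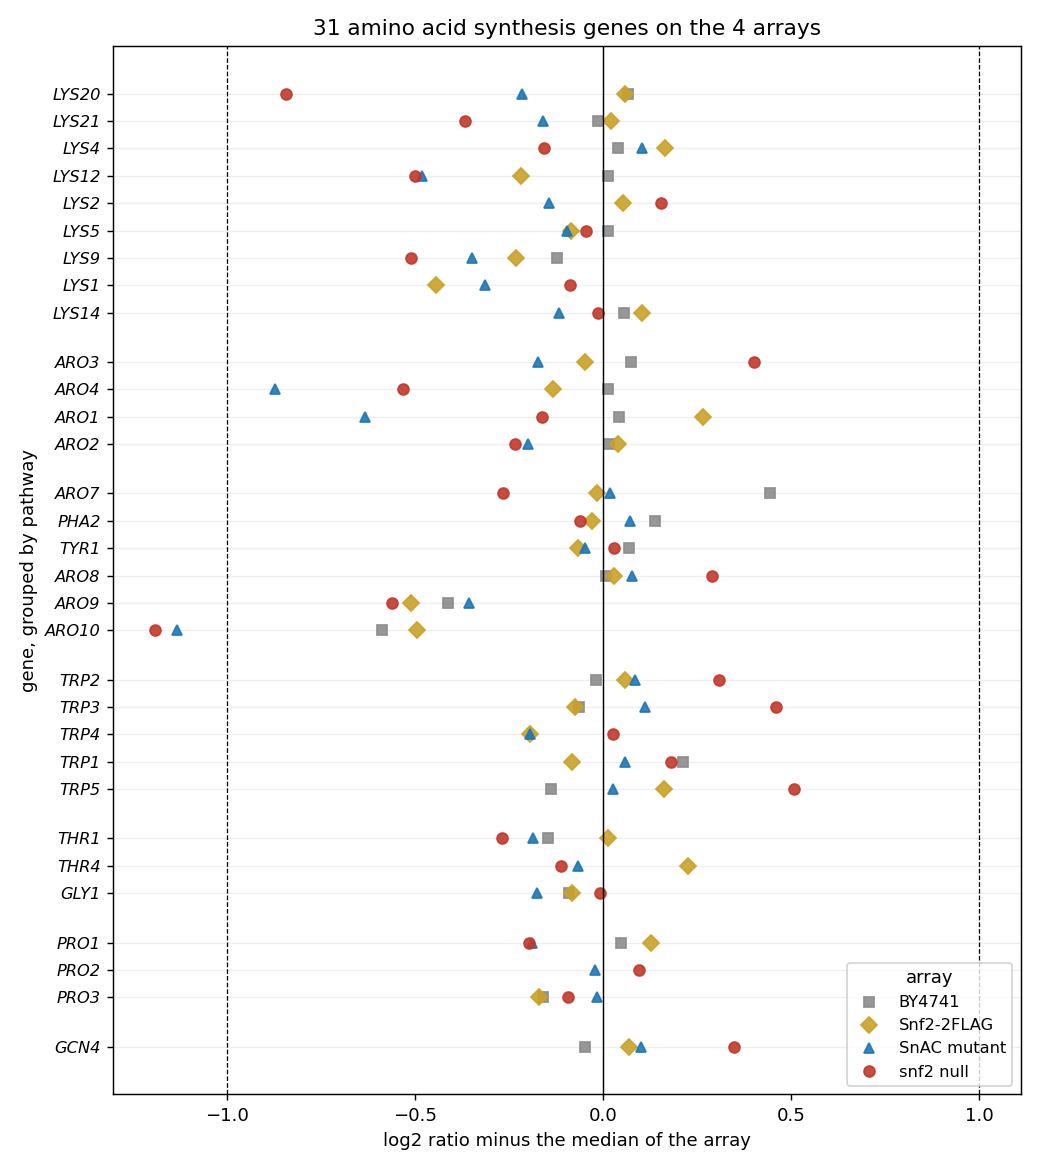
Log2 ratio minus the array median (horizontal axis) of the 31 genes, grouped by pathway, with 1 point per array and no error bars because each group has 1 array. Dashed lines mark 2-fold, and ARO10 alone passes one, in the null at -1.19 and in the SnAC mutant at -1.13.

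Of the 9 lysine genes, the one at the first step had the lowest value in the null, and it alone was at least 1.5-fold lower there. LYS20 (YDL182W), a homocitrate synthase, which commits 2-oxoglutarate to lysine, read 0.07 in BY4741 and 0.06 in Snf2-2FLAG, against -0.22 in the SnAC mutant and -0.84 in the null. It was therefore 1.80-fold lower in the null, where 1.87% of features lay lower still, while in the SnAC mutant 13.5% did. Its isoenzyme LYS21 (YDL131W) read -0.015, 0.02, -0.16 and -0.37 in the same order. Both isoenzymes were thus lower in the null than on every other array. These genes are similar in sequence, so their probes may share signal.

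The following steps were uneven. LYS4 (YDR234W), the homoaconitase, read 0.04 in BY4741 and 0.17 in Snf2-2FLAG, against 0.10 in the SnAC mutant and -0.16 in the null, a narrow range. LYS12 (YIL094C), the homoisocitrate dehydrogenase, read 0.012 and -0.22 on the wild-type arrays, -0.48 in the SnAC mutant and -0.50 in the null. LYS12 was 1.40-fold lower in the SnAC mutant and 1.41-fold lower in the null, nearly the same in both.

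After 2-aminoadipate, LYS2 (YBR115C), the aminoadipate reductase, read 0.05 in Snf2-2FLAG, -0.14 in the SnAC mutant and 0.15 in the null. It was the only lysine gene above the median of the null array. LYS5 (YGL154C), which attaches the cofactor that activates Lys2, read 0.012, -0.09, -0.10 and -0.05 in BY4741, Snf2-2FLAG, the SnAC mutant and the null. Neither gene of this step left the range where most features lay.

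The 2 saccharopine dehydrogenases close the pathway. LYS9 (YNR050C), which forms saccharopine, read -0.12 in BY4741 and -0.23 in Snf2-2FLAG, against -0.35 in the SnAC mutant and -0.51 in the null. LYS9 was lower on each mutant array than on its wild-type array, by 0.39 in the null and by 0.12 in the SnAC mutant. LYS1 (YIR034C), which releases lysine, read -0.45 in Snf2-2FLAG, -0.31 in the SnAC mutant and -0.09 in the null. Its lowest value was thus on a wild-type array, and minus that array it read 0.13 in the SnAC mutant. LYS14 (YDR034C), the pathway's activator, read 0.06, 0.10, -0.12 and -0.015 in the same order of arrays. Transcript of the activator stayed near the median while LYS20, LYS12 and LYS9 were the lowest lysine genes of the null.

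As a group, 8 of the 9 lysine genes lay below the median in the null and 8 of 9 in the SnAC mutant, with medians of -0.157 and -0.159. The exception was LYS2 in the null and LYS4 in the SnAC mutant. In the null the genes spread from -0.84 to 0.15, and in the SnAC mutant from -0.48 to 0.10. On the wild-type arrays 2 of 7 and 4 of 9 lysine genes lay below the median. With the wild-type array subtracted, 7 of 7 lysine genes were below 0 in the null and 8 of 9 in the SnAC mutant, the exception now being LYS1.

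Shikimate synthesis opens with a pair of isoenzymes that parted in the null. ARO3 and ARO4 both make the first committed intermediate, and the first is inhibited by phenylalanine and the second by tyrosine. ARO4 (YBR249C) read 0.012 in BY4741 and -0.13 in Snf2-2FLAG, against -0.87 in the SnAC mutant and -0.53 in the null. It was 1.83-fold lower in the SnAC mutant, where 1.44% of features lay below it, and 1.45-fold lower in the null. ARO3 (YDR035W) read 0.08, -0.05, -0.17 and 0.40 in the same order. ARO3 was thus highest in the null, 1.32-fold above its typical gene, while ARO4 was below the median in both mutants.

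ARO1 (YDR127W), the multifunctional enzyme of the central shikimate steps, read 0.04 in BY4741 and 0.27 in Snf2-2FLAG, against -0.63 in the SnAC mutant and -0.16 in the null. It was 1.55-fold lower in the SnAC mutant, with 2.34% of features below it. The Snf2-2FLAG array lay on the other side of the median, and minus that array ARO1 read -0.90, the lowest of all members after this subtraction in the SnAC mutant. Subtraction also widened the spread of all features, whose central 95% then ran from -0.92 to 0.91 and took in ARO1. Before subtraction that range began at -0.60, and ARO1 lay outside it. ARO2 (YGL148W), the chorismate synthase, read 0.015, 0.04, -0.20 and -0.23 in the order above, about the same in both mutants. The median of the 4 shikimate genes was -0.42 in the SnAC mutant, with all 4 below 0, and -0.20 in the null, with 3 of 4 below 0. In BY4741 all 4 lay between 0.012 and 0.08.

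On the branch to phenylalanine and tyrosine, the synthetic enzymes stayed near the middle. ARO7 (YPR060C), the chorismate mutase that commits chorismate to this branch, read 0.44 in BY4741 and -0.02 in Snf2-2FLAG, against 0.02 in the SnAC mutant and -0.27 in the null. Its highest value was on the BY4741 self-hybridisation, above the 0.30 that bounds the upper side of the central 95% of that array. Minus that array, ARO7 in the null moved from -0.27 to -0.71. The central 95% of features after the same subtraction ran from -0.83 to 0.885, which took in ARO7. PHA2 (YNL316C), the prephenate dehydratase of phenylalanine synthesis, ranged from -0.06 in the null to 0.14 in BY4741. TYR1 (YBR166C), the prephenate dehydrogenase of tyrosine synthesis, ranged from -0.07 in Snf2-2FLAG to 0.07 in BY4741. Neither gene separated the mutants from the wild types.

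The aminotransferases and the decarboxylase at the end of this branch differed from each other. ARO8 (YGL202W), an aromatic aminotransferase that also serves lysine synthesis, read 0.007, 0.03, 0.08 and 0.29 in BY4741, Snf2-2FLAG, the SnAC mutant and the null, and was highest in the null. ARO9 (YHR137W), the aminotransferase known mainly for aromatic amino acid breakdown, read -0.41, -0.51, -0.36 and -0.56. All 4 arrays were low for ARO9, and the mutants did not stand apart from the wild types.

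ARO10 (YDR380W), the phenylpyruvate decarboxylase that sends aromatic keto acids towards fusel alcohols, read -0.59 in BY4741 and -0.50 in Snf2-2FLAG, against -1.13 in the SnAC mutant and -1.19 in the null. It was 2.29-fold lower in the null and 2.19-fold lower in the SnAC mutant, and 1.28% and 1.002% of features lay lower on those arrays. On the BY4741 self-hybridisation ARO10 was the 1 of 26 members at least 1.5-fold lower than the median, where 0.258% of features were. On Snf2-2FLAG, 0 of 30 members were, against 1.06% of features. Minus the wild-type arrays, ARO10 read -0.61 in the null and -0.64 in the SnAC mutant, so the values past 2-fold end in that setting. The part that the wild-type pattern has in the mutant values was not tested. ARO80, the activator of ARO9 and ARO10, read 0.18 in the null and had no value in the SnAC mutant. It was named after its value was seen.

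Tryptophan synthesis lay on the high side of the null. TRP5 (YGL026C), the tryptophan synthase of the last step, read -0.14 in BY4741 and 0.16 in Snf2-2FLAG, against 0.03 in the SnAC mutant and 0.51 in the null. TRP5 was 1.42-fold higher in the null, and 94.4% of features lay below it. TRP3 (YKL211C), which carries the glutaminase part of anthranilate synthase and a later activity of the same pathway, read -0.06, -0.08, 0.11 and 0.46. TRP2 (YER090W), the other part of anthranilate synthase, read -0.02, 0.06, 0.08 and 0.31. For TRP2, TRP3 and TRP5 the null was the highest of the 4 arrays.

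The middle steps were closer to the median. TRP4 (YDR354W), the anthranilate phosphoribosyltransferase, read -0.19 in Snf2-2FLAG, -0.20 in the SnAC mutant and 0.03 in the null. TRP1 (YDR007W), the isomerase that follows, read 0.21 in BY4741 and -0.08 in Snf2-2FLAG, against 0.06 in the SnAC mutant and 0.18 in the null. TRP1 was thus no higher in the null than on the BY4741 array, and minus that array it read -0.03. Over the 5 genes the median was 0.31 in the null and 0.06 in the SnAC mutant. Minus the BY4741 array, 3 of the 4 tryptophan genes measured there were above 0 in the null, TRP1 being the exception. In the null the lowest tryptophan gene, TRP4, was below the highest lysine gene, LYS2, so the pathways overlapped at that end.

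Threonine and glycine genes showed small values throughout. THR1 (YHR025W), the homoserine kinase, read -0.15 in BY4741 and 0.012 in Snf2-2FLAG, against -0.19 in the SnAC mutant and -0.27 in the null. THR4 (YCR053W), the threonine synthase, read 0.23 in Snf2-2FLAG, -0.07 in the SnAC mutant and -0.11 in the null. GLY1 (YEL046C), the threonine aldolase that makes glycine, read -0.09, -0.08, -0.18 and -0.009. All 3 lay below the median on both mutant arrays, and GLY1 hardly so in the null.

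Proline genes were also near the middle. PRO1 (YDR300C), the glutamate kinase of the first step, read 0.05 in BY4741 and 0.13 in Snf2-2FLAG, against -0.19 in the SnAC mutant and -0.20 in the null. Each mutant lay below each wild type for PRO1. PRO2 (YOR323C), the reductase of the next step, read -0.02 in the SnAC mutant and 0.10 in the null. PRO3 (YER023W), the pyrroline-5-carboxylate reductase that ends the pathway, read -0.16, -0.17, -0.02 and -0.09, so for PRO3 the mutants lay above the wild types. All 3 lay below the median in the SnAC mutant, PRO2 and PRO3 only just, and in the null PRO2 lay above it.

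GCN4 (YEL009C) read -0.05 in BY4741 and 0.07 in Snf2-2FLAG, against 0.10 in the SnAC mutant and 0.35 in the null. The null was the highest array for this activator, 1.27-fold above the typical gene. Gcn4 is controlled mainly at translation, which an mRNA array does not measure. Genes that act on its translation stayed within 1.5-fold of the median in both mutants, but most lay below it. In the null GCN1, GCN3, GCN20, GCD1, GCD2, GCD6, GCD7 and GCD11 were below it, GCD1 lowest at -0.28, and only GCN2 was above. In the SnAC mutant GCN1 and GCN2 were above it and the others below, GCD6 lowest at -0.26. The sensor kinase GCN2 read 0.24 in the SnAC mutant and 0.16 in the null, and GCN20 read -0.24 and -0.22. All of these GCN and GCD genes were named with their values known.

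The further genes of these pathways numbered 36, of which 34 had a value in the null and 32 in the SnAC mutant. At 1.5-fold, 1 was lower and 1 higher in each mutant, beside the shares of all features given above for that size (3.27% and 4.28% in the null, 2.56% and 3.12% in the SnAC mutant). TAT1, a permease that takes up tyrosine, tryptophan and branched-chain amino acids, read 0.36 in BY4741 and 0.27 in Snf2-2FLAG, against -0.48 in the SnAC mutant and -1.06 in the null. PUT4, a proline permease, read 0.18 in Snf2-2FLAG, 1.18 in the SnAC mutant and 1.40 in the null, and it had no value on the BY4741 array. CHA1, which breaks down serine and threonine, read -0.18 and -0.22 on the wild-type arrays, -0.89 in the SnAC mutant and -0.52 in the null. Other genes of uptake and breakdown on this list stayed within 1.5-fold of the array median in both mutants. In the null the lysine permease LYP1 read 0.16 and the proline oxidase PUT1 -0.16. The tryptophan permease TAT2 read 0.24 in BY4741 and 0.04 in Snf2-2FLAG, against -0.025 in the SnAC mutant and -0.39 in the null. Minus the BY4741 array, TAT2 in the null was -0.62, inside the central 95% of features after that subtraction. LYP1, PUT1 and TAT2 were named with their values known. The steps from aspartate to homoserine, named after their values were seen, differed between the mutants. HOM3, the aspartate kinase, read 0.37 in the null and -0.36 in the SnAC mutant, and HOM2, the next dehydrogenase, read 0.30 and -0.22, while HOM6, the homoserine dehydrogenase, read 0.24 and 0.25.

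Set against each other, the mutants ordered the members in a similar way. Across the 31 genes Pearson's r was 0.73 and Spearman's rho was 0.71, and without ARO10 they were 0.61 and 0.68. Over 5790 features r was 0.88 and rho 0.77. The arrays have separate wild types, and genes are not independent, so these coefficients describe the arrays only. Both mutants lay below the median for 17 members and above it for 6, while 5 were above it only in the null and 3 only in the SnAC mutant. Of the 5790 features, 2261 lay below the median in both mutants and 2274 above it in both. Lying on the same side in both mutants was thus not particular to the members.

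The difference between the mutants, null minus SnAC mutant, had a central 95% from -0.37 to 0.39 over all features, which by definition leaves out 5% of them. It took in 27 of the 31 members and left out 4, which are LYS20, ARO3, TRP5 and ARO1. LYS20 differed by -0.63, the lower value being in the null, and 0.725% of features had a lower difference. ARO3 differed by 0.57, TRP5 by 0.48 and ARO1 by 0.47, each with the higher value in the null. These are differences of single arrays with no replicate spread, so none could be tested. With the wild-type arrays subtracted from each mutant, the difference was 0.78 for TRP5, 0.69 for ARO1, -0.64 for LYS20 and 0.45 for ARO3. ARO7, at -0.29 before, then differed by -0.75. The central 95% above is for the difference before subtraction. No such range was computed for this difference after subtraction, so the subtracted differences are not placed against all features.

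**Figure D2:**
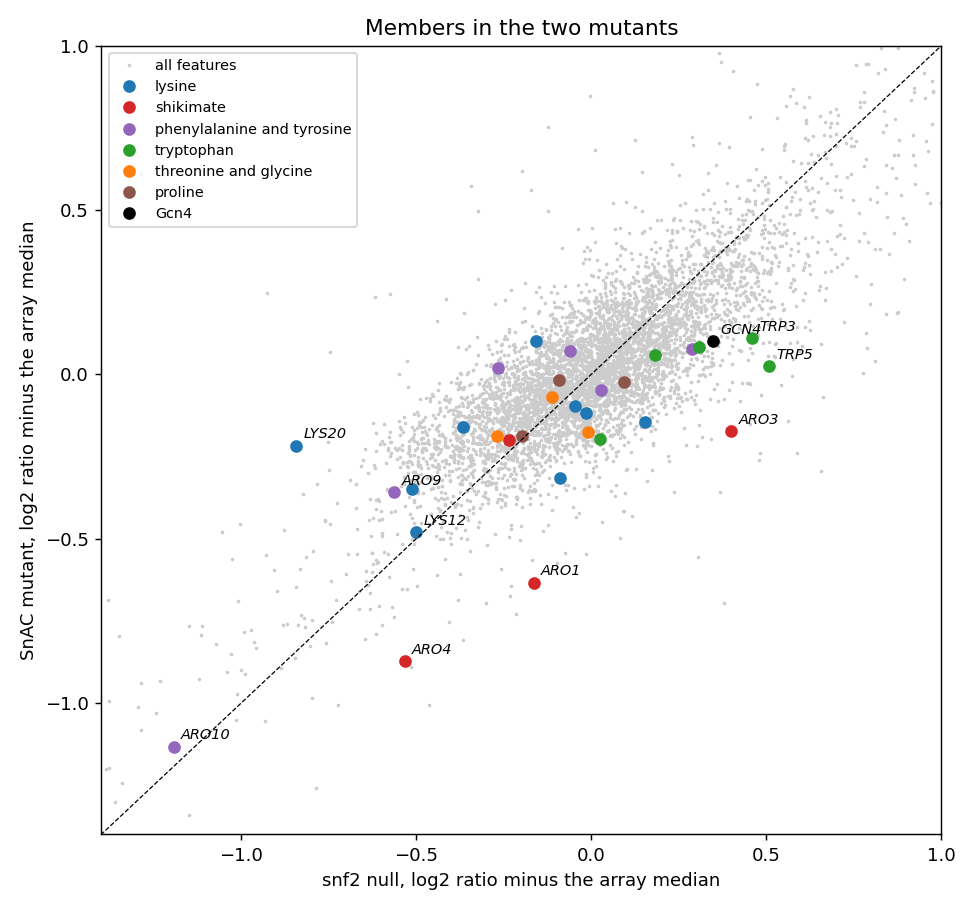
Log2 ratio minus the array median in the snf2 null (horizontal axis) and in the SnAC mutant (vertical axis) for the 31 members, coloured by pathway, over all features in grey; features beyond the axes are not drawn, and the dashed line marks equal values. LYS20 lies above the dashed line, with a difference of -0.63, and ARO1 and ARO3 lie below it, with differences of 0.47 and 0.57.

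The wild-type arrays were also set against the mutants, because ARO9 and ARO10 were low on all 4. Since these genes prompted the comparison, the coefficients over the members are not separate evidence. ARO9 stays in those given without ARO10. Over all features the null correlated with BY4741 at r of -0.24 and the SnAC mutant with Snf2-2FLAG at -0.26. Over the members the same coefficients were 0.37 with 26 genes and 0.47 with 30. Without ARO10 they were 0.07 and 0.28, so the value in the null rests on that gene. Between BY4741 and Snf2-2FLAG the members gave an r of 0.60, or 0.43 without ARO10, beside 0.45 over 5407 features.

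Other amino acid pathways under Gcn4 give a scale for these values, as a description with no test. Of 7 measured arginine genes, 7 lay above the median in the null, with a median of 0.66, and 2 were at least 2-fold higher, namely ARG1 at 2.08 and ARG4 at 1.34. In the SnAC mutant ARG1 read 0.11 and ARG4 0.06, and the median was -0.03. Tryptophan genes lay on the same side as arginine genes in the null, at a smaller size. Of 7 histidine genes, only HIS4 was at least 2-fold lower, at -1.26 in the null and -1.54 in the SnAC mutant. The median of the branched-chain genes was -0.30 for the null and -0.20 for the SnAC mutant, below those of the lysine genes on both arrays, and the aminotransferase BAT2 read -2.30 in the null and -1.85 in the SnAC mutant. BAT2, like ARO9 and ARO10, encodes an enzyme used in the breakdown of amino acids to fusel alcohols. The mutants did not stand apart from the wild types for ARO9, and a shared pattern of this route was not tested. Among further genes that can serve it, PDC1 read -0.10 in the null and 0.10 in the SnAC mutant, and SFA1 -0.055 and -0.09. PDC5 read -0.07 and 0.05, PDC6 0.02 and 0.21, and ADH1 0.07 and 0.35. ADH2 read 0.15 and 0.24. These further genes were named with their values known.

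**Figure D3:**
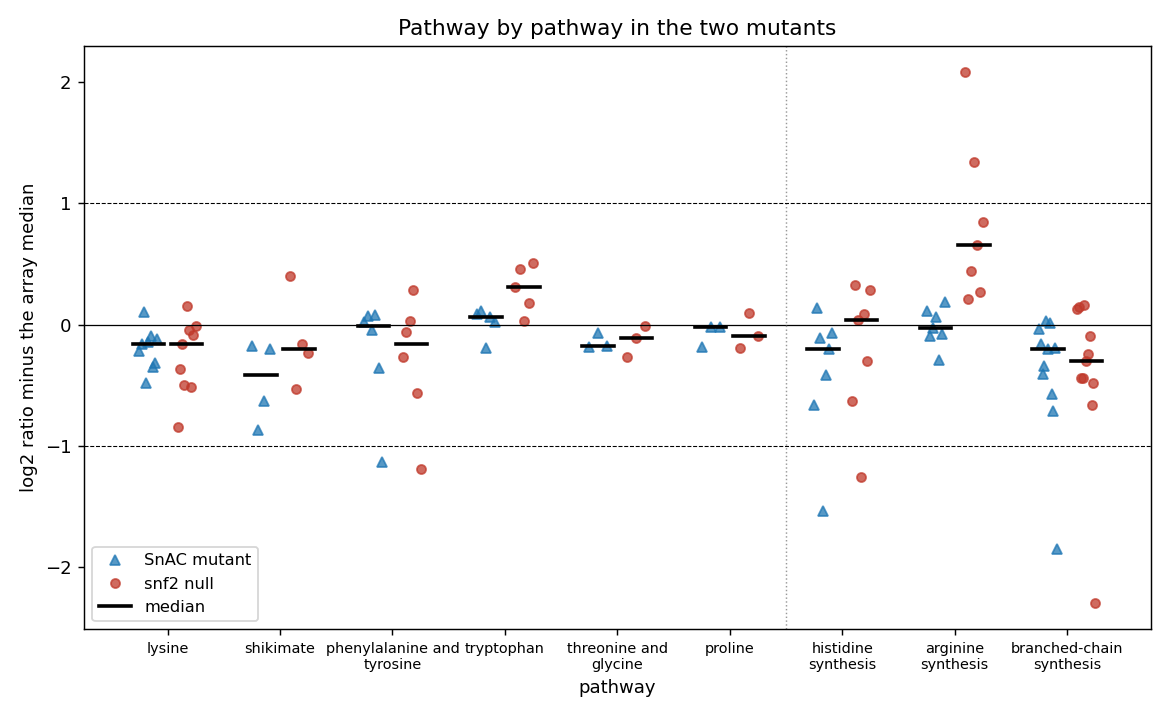
Log2 ratio minus the array median (vertical axis) of single genes in each pathway (horizontal axis) in the SnAC mutant (triangles) and the null (circles), with black bars at the medians and dashed lines at 2-fold; the 3 pathways right of the dotted line are other Gcn4-controlled ones. Tryptophan and arginine genes all lie above 0 in the null, and lysine genes lie mostly below it in both mutants.

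The genes beside the members were looked up by order in the yeast gene table. Of 55 neighbours measured in the null, 3 were at least 2-fold from the median, and 2 of 53 were in the SnAC mutant. Of all features, 1.59% were that much lower and 1.26% higher in the null, and 1.19% and 0.866% in the SnAC mutant, so counts this small say nothing of neighbours in general. Those 3 genes were named with their values known. MET6, the methionine synthase next to TRP2, read 2.58 in the null and 1.89 in the SnAC mutant, while TRP2 read 0.31 and 0.08. MRH1, a membrane protein gene next to LYS14, read -1.81 and -1.64, while LYS14 read -0.015 and -0.12. SPL2, a regulator of phosphate uptake next to ARO9, read -1.94 and -0.99, while ARO9 read -0.56 and -0.36. In the null these neighbours had to lie further from the median than the members beside them. They were picked at 2-fold, which only ARO10 passed among the members. The same order in the SnAC mutant is not separate evidence, because the 2 mutant arrays were correlated over all features.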

How the data were processed

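Per the labels, poly(A) RNA was reverse transcribed with aminoallyl-dUTP, coupled to Cy3 and Cy5 and hybridised in 2 dye orientations per sample. The authors deposited 1 log2 ratio per probe and sample; base 2 is an assumption, and centring, background correction, filters and the use of the Bacillus spike-ins are not given in the sources used here. Channel 1 held the named strain, which sets the direction. Precision is limited by having 1 sample in each group, and how the 2 dye orientations were combined is not given.

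Of 6226 probes, 5578 had 1 gene name in the platform annotation, 648 none and 0 several. Symbols were updated through the R64 gene table, which also gave the order of genes. Probes of a gene were averaged, giving 6195 features, and each array was centred on the median of its features. No test was possible, so genes were described by size, at 2-fold and 1.5-fold from the array median, beside the share of all features past the same size. Every member is named with its values; further pathway genes are named at 1.5-fold, and genes of the compared pathways at 2-fold, in either mutant. The members and lists were chosen with earlier results of these data known. Alternatives were no centring, subtraction of the centred wild-type array, a centre over the 5134 features on all 4 arrays, and sizes of 1.5-fold and 3-fold. Reading the values as natural logs was added after seeing the data. Python 3.11.15, numpy 2.4.6, pandas 2.3.3, scipy 1.17.1 and matplotlib 3.10.9 were used. The size rule of 2-fold was tried on simulated 3-fold changes added to the wild-type arrays. Those changes are larger than that of any member, so the trial does not show how smaller ones are recovered. Promoter and protein sequences were not used here.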

Additional observations from a re-analysis of the deposited data

Results flagged for a closer look

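Genes were singled out where the null and the SnAC mutant lay on opposite sides of their array medians, each by more than the spread of its own wild-type array. This spread, an SD estimated from the median absolute deviation, was 0.14 for BY4741 and 0.22 for Snf2-2FLAG. None of the 31 members met this, and the difference was not tested for either gene that did. HOM3, the aspartate kinase upstream of threonine, read 0.37 in the null and -0.36 in the SnAC mutant, a difference of 0.73. ARG7, of arginine synthesis, read 0.66 and -0.295, a difference of 0.95.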

How the results depend on the processing

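No paired analysis was possible because each group has 1 array. With a centre over the features on all 4 arrays, the value of every member moved from that reported by less than the spread of the wild-type array of its mutant, and the counts past 2-fold were 1 in each mutant. Without centring, all 31 members of the SnAC mutant moved by the array's offset, their median became -0.54 and 3 were past 2-fold, all of them lower: ARO10, ARO4 and ARO1. In the null the count without centring was 1. Minus the centred wild-type arrays, 0 members were past 2-fold in either mutant, where 26 members could be compared for the null and 30 for the SnAC mutant, and 6 members moved by more than the spread in each. At 1.5-fold the counts were 2 and 3 in the null and the SnAC mutant, at 3-fold 0 and 0, and with values read as natural logs 2 and 2. No member that was past 2-fold changed sign in these settings. Every member had 1 probe, so the choice between probes of a gene gave no value. A single array per group limits all of these values, and no signal level shows which genes were near background.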
